A study of Homo sapiens with 18 samples.

Results

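The cytoplasmic ribosomal proteins are the protein building blocks of the ribosomes that translate nuclear-encoded mRNA. Of 60658 gene rows in the expression table, 84 were protein-coding genes whose symbols follow the naming of this family (RPL or RPS with a number, the P-stalk genes RPLP0, RPLP1 and RPLP2, and RPSA). They comprise 52 genes of the large subunit and 32 of the small subunit, as grouped by the letter L or S in the symbol. RPS6 kinases and pseudogenes are outside the set by the same naming rule. Of the 84 genes, 82 reached 1 FPKM in 3 or more of the 18 libraries and were tested. The other 2 are RPL10L, listed at 0 in every library, and RPL3L, which reached 0.529 FPKM at most.

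RNA was taken from 18 plates of human leukaemia cells, 3 for each of 6 groups. B11 was sampled after 5 days at 0, 1 and 10 ug/ml doxycycline, and THP1, its parent line, at the same 3 doses. THP1 is an established monocytic line from acute myeloid leukaemia, labelled as heterozygous for NRAS-G12D. B11 is labelled as heterozygous for NRAS-G12V. B11 is a single subclone of THP1 that carries a lentiviral, doxycycline-inducible, CRISPR-resistant NRAS with the G12V mutation and GFP, and a vector with Cas9, puromycin resistance and paired guides that flank the NRAS start codon. The design text describes these vectors for B11 only, and the THP1 plates give the response of the parent to doxycycline. Each line was divided into its plates from cells grown as a whole, and the p-values therefore measure only the spread between plates.

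A ribosome has a large and a small subunit, and nearly all of their proteins are present in a single copy per ribosome. In vertebrates most ribosomal protein mRNAs begin with a C followed by an unbroken run of pyrimidines, the terminal oligopyrimidine or TOP tract, through which LARP1 and mTORC1 set their translation together. Several genes have copies, close or more diverged (RPL39L, RPL22L1, RPL26L1, RPL7L1, RPS27L, RPL3L, RPL10L), with tissue-restricted or lower expression. RPL3L and RPL10L are known for muscle and testis. RPL5 and RPL11 also bind MDM2 and so link ribosome assembly to p53, and mutations in RPS19, RPS26 and other members cause Diamond-Blackfan anaemia.

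The start sites show the feature that most members share although the symbol rule did not use it. RefSeq start windows on GRCh38.p14 were at hand for 67 of the 84 genes. In 47 of these 67, or 70.1%, at least 1 listed start was a C that opened a run of at least 5 letters C or T, searched on the transcribed strand only. Among 14766 other protein-coding genes the same letters stood at a start in 6.10%. The windows below run 10 bases before to 20 bases from a listed start site, in the direction of transcription, and the capitals mark the run. Where a gene has several listed starts, the one with the longest run is shown. They are shown for some of the genes with large changes in B11, first canonical genes that fell, then RPLP0 and RPS19, which rose, and RPL22L1, which was higher at 10 than at 1 ug/ml. The last are RPS26 and 3 copies of other members, which have no such run at the listed start.
RPL39 (chrX:119791611-119791640, minus strand): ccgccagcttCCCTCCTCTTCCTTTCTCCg
RPL34 (chr4:108620566-108620595, plus strand): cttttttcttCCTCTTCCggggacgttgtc
RPS13 (chr11:17077648-17077677, minus strand): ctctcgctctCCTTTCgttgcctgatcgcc
RPL27A (chr11:8682782-8682811, plus strand): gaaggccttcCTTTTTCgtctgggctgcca
RPL26 (chr17:8383174-8383203, minus strand): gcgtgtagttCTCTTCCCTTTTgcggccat
RPL22 (chr1:6199576-6199605, minus strand): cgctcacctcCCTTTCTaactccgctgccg
RPLP0 (chr12:120201092-120201121, minus strand): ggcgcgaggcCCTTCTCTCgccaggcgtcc
RPS19 (chr19:41860245-41860274, plus strand): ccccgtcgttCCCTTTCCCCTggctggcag
RPL22L1 (chr3:170870176-170870205, minus strand): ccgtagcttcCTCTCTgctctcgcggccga
RPS26 (chr12:56041908-56041937, plus strand): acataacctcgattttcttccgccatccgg
RPL26L1 (chr5:172958719-172958748, plus strand): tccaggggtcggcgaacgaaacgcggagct
RPS27L (chr15:63157458-63157487, minus strand): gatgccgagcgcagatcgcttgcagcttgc
RPL7L1 (chr6:42879606-42879635, plus strand): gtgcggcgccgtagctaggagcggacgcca

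The libraries matched a myeloid line, but monocytic markers differed between the groups and not all in 1 direction. Maturation itself was not measured. SPI1 and CEBPA, transcription factors of the myeloid lineage, stood at 198 to 305 and 134 to 211 FPKM over the 18 libraries, while CD3E of T cells and HBB of red cells were listed at 0. LYZ, which encodes lysozyme, averaged 2781, 448 and 294 FPKM in B11 at 0, 1 and 10 ug/ml, against 731, 771 and 659 FPKM in THP1. CSF1R, a receptor of monocytes, averaged 174, 43.5 and 14.1 FPKM in B11 and 71.8, 80.6 and 50.5 FPKM in THP1 at those doses. Other monocytic markers went the other way in B11, with ITGAM at 3.37, 27.9 and 11.3 FPKM, FCGR1A at 21.4, 68.7 and 48.8 FPKM and CD14 at 0.841, 6.03 and 0.976 FPKM at 0, 1 and 10 ug/ml. In THP1 at those doses ITGAM averaged 19.4, 21.7 and 12.7 FPKM, FCGR1A 80.2, 83.1 and 74.8 FPKM and CD14 11.3, 8.84 and 7.33 FPKM. CD33 averaged 131, 96.1 and 91.98 FPKM and MPO 7.70, 3.97 and 4.70 FPKM in B11 at those doses. These markers differ between the doses in B11, and their part in the ribosomal protein changes was not tested. PECAM1, set as an endothelial marker, was at 121 to 387 FPKM, and myeloid cells express it too. NRAS averaged 20.95, 23.8 and 27.96 FPKM in B11 at 0, 1 and 10 ug/ml and 23.3, 23.4 and 24.2 FPKM in THP1, with endogenous and transgene reads summed in 1 value. Depth was estimated at 11.6 M to 16.7 M fragments per library (M, 1e6) from the smallest values of long genes with a single transcript.

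As a family these transcripts were among the most abundant in the cells. The median tested member averaged 2353 FPKM over all libraries, against 9.28 FPKM for the median of all 17555 tested genes, and 70 of the 82 averaged at least 1000 FPKM. The 5 highest were RPS18 at 7160 FPKM, RPS3 at 7159, RPS27 at 7078, RPL30 at 5588 and RPL8 at 5454. The 5 lowest tested members were all copies of other members: RPL39L at 28.5 FPKM, RPL22L1 at 32.2, RPL26L1 at 44.0, RPL7L1 at 64.6 and RPS27L at 74.4. FPKM divides by transcript length, and the median length of the members is 722.5 bases, against 2685 for other protein-coding genes. This length is that of 1 transcript per gene, the lowest-numbered coding one, which may not be the main one. It puts RPL14 at 7072 bases. The correction is less certain for short transcripts. RPL41, RPS26 and RPL21 stood at 149, 180 and 393 FPKM, below the other canonical members.

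Together the 84 genes made up 16.2% to 21.1% of the FPKM sum of a library. In B11 the share averaged 20.6% ± 0.564 at 0 ug/ml, 16.6% ± 0.484 at 1 ug/ml and 19.3% ± 0.511 at 10 ug/ml (SD, n = 3 each). In THP1 it averaged 19.99% ± 0.977, 19.8% ± 0.368 and 20.5% ± 0.683 at the same doses. The 3 libraries of B11 at 1 ug/ml, at 17.1%, 16.2% and 16.5%, lay below each of the other 15, which ranged from 18.9% to 21.1%. Libraries B and C of that group also hold an unnamed ID with 6.51% and 3.76% of the FPKM sum, and with it left out of the sum the group averaged 17.2%. In the bulk samples, fewer cells of a type and less RNA per cell cannot be told apart. The small subunit genes held 41.4%, 41.5% and 41.5% of the family's sum in B11 at 0, 1 and 10 ug/ml and 43.2%, 43.3% and 42.9% in THP1, with no B11 library above 41.8% and no THP1 library below 42.5%.

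**Figure D1:**
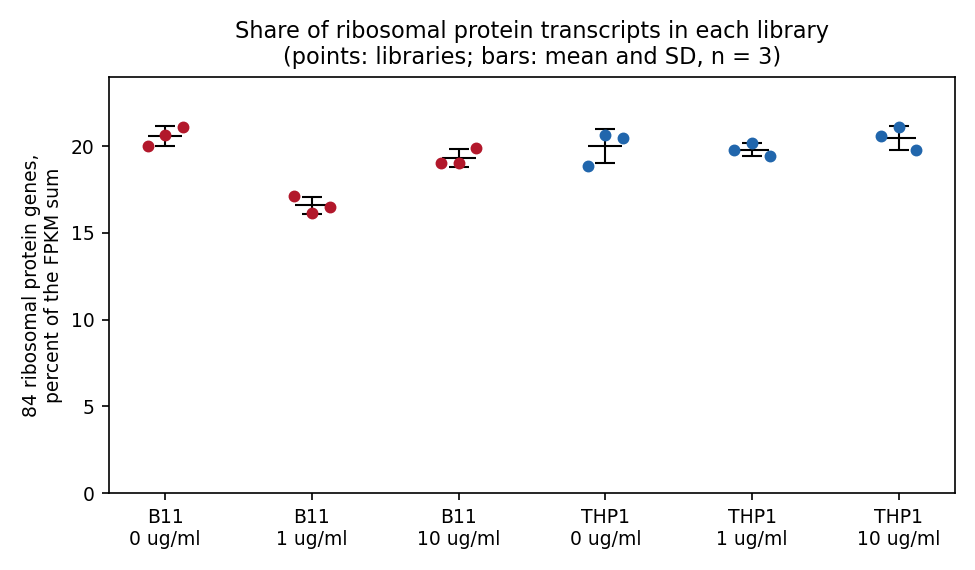
Share of the FPKM sum taken by the 84 ribosomal protein genes (percent, y axis) in each library of B11 (red) and THP1 (blue), by doxycycline dose on the x axis. Points are libraries and black bars are the mean and SD of 3. B11 at 1 ug/ml lies at 16.2% to 17.1%, below all other libraries.

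At 10 against 0 ug/ml doxycycline in B11, the family split into 27 members that fell and 11 that rose. The changes are differences of log2(FPKM + 1) tested with limma across all 17555 genes, and a gene was called at a Benjamini-Hochberg adjusted p under 0.05. The members that fell are 32.9% of the 82, against 21.3% of all genes called lower. Those that rose are 13.4%, against 21.6% of all genes called higher. The median member changed by -0.12, against -0.02 over all genes. Members are measured more precisely than most genes, with a median standard error (SE) of 0.07 against 0.20, which lets smaller changes pass. The split depended on the scaling. It was 25 lower and 19 higher with values rescaled to TPM, 40 and 15 with TPM over protein-coding nuclear genes, and 37 and 9 with the median of ratios. The medians were then -0.05, -0.11 and -0.14. Without library B of untreated B11, 24 were lower and 7 higher.

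The largest rise was in RPL39L, the close copy of RPL39, which lines the exit tunnel of the large subunit (chromosome 3, 187120948 to 187180908, minus strand, in GENCODE release 29 on GRCh38). RPL39L was at 40.7, 41.4 and 36.2 FPKM in B11 at 10 ug/ml and at 6.17, 7.45 and 7.95 FPKM in untreated B11. Its canonical partner RPL39 (chromosome X, 119786504 to 119791643, minus strand) went the other way, with 1711, 1920 and 2124 FPKM at 10 ug/ml and 2983, 3200 and 3411 FPKM without doxycycline. The groups did not overlap for either gene. By limma RPL39L changed by 2.31 (SE 0.11, adjusted p = 6.04e-10) and RPL39 by -0.74 (SE 0.12, adjusted p = 0.000132), the largest rise and the largest fall of any member. RPL39L thus came to 2.08% ± 0.344 of RPL39 at 10 ug/ml, against 0.224% ± 0.0150 in untreated B11 and 1.60% ± 0.0918 in untreated THP1 (SD, n = 3 each). Untreated B11 was the group that stood apart, since THP1 held RPL39L at 23.95 to 35.1 FPKM over its 9 libraries. At the estimated depth these values stand for about 63 to 71 fragments per library in untreated B11 and 350 to 419 at 10 ug/ml.

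Among the canonical members with the largest falls beside RPL39 were the large subunit proteins RPL34, RPL21 and RPL30 and the small subunit protein RPS13. RPL34 was at 1612, 1822 and 1776 FPKM in B11 at 10 ug/ml and at 2529, 2969 and 2894 FPKM in untreated B11. RPL30 was at 4677, 4948 and 5089.5 FPKM at 10 ug/ml and at 7433, 7121 and 7417 FPKM without doxycycline. RPS13 was at 1548, 1661 and 1748 FPKM at 10 ug/ml and at 2245, 2472 and 2651 FPKM without it. For RPL34, RPL30 and RPS13 every treated library lay below every untreated one, and the limma changes were -0.69 (SE 0.09, adjusted p = 2.30e-05), -0.58 (SE 0.07, adjusted p = 7.17e-06) and -0.57 (SE 0.08, adjusted p = 3.89e-05). RPS27 fell by 0.55 and RPL21 by 0.66. The call of RPL21 was lost without library A, B or C at 10 ug/ml and without library A or B at 0 ug/ml.

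Among canonical members that rose were RPS26 at the mRNA exit of the small subunit, RPS2 and RPS19 of the same subunit, and RPLP0, the base of the P-stalk that binds elongation factors. RPS26 was at 162, 163 and 166 FPKM in B11 at 10 ug/ml and at 109, 109 and 106 FPKM in untreated B11. RPS19 was at 3483, 3520 and 3452 FPKM at 10 ug/ml and at 2549, 2556 and 2649 FPKM without doxycycline. RPS2 was at 3825, 3634 and 3889 FPKM at 10 ug/ml and at 3138, 2522 and 2681 FPKM without it. In each, all treated libraries were above all untreated ones, by 0.59 (SE 0.08, adjusted p = 1.55e-05) for RPS26, 0.43 (SE 0.05, adjusted p = 6.14e-06) for RPS19 and 0.45 (SE 0.07, adjusted p = 0.000165) for RPS2. RPLP0 was at 3851, 4027 and 4102 FPKM at 10 ug/ml and at 2861, 2928 and 3278 FPKM without doxycycline, a change of 0.40 (SE 0.10, adjusted p = 0.00403). RPL8, which lies near the peptidyl transferase centre, rose by 0.23, RPL3 by 0.19 and RPL35 by 0.16, and the call of RPL3 was lost without library B of untreated B11. Members that rose with doxycycline and were also called lower in untreated B11 than in untreated THP1 included RPL35, RPL39L, RPL7L1, RPL8, RPLP0, RPS19, RPS2 and RPS26. Of the 27 members that fell, 21 were also called higher in untreated B11 than in untreated THP1. In that comparison 43.9% of the 82 members were called higher and 23.2% lower, against 23.5% and 23.6% of all genes. For rises and falls alike, both comparisons share the untreated B11 libraries, so high or low values there favour both calls. The same overlaps over all genes were not counted.

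**Figure D2:**
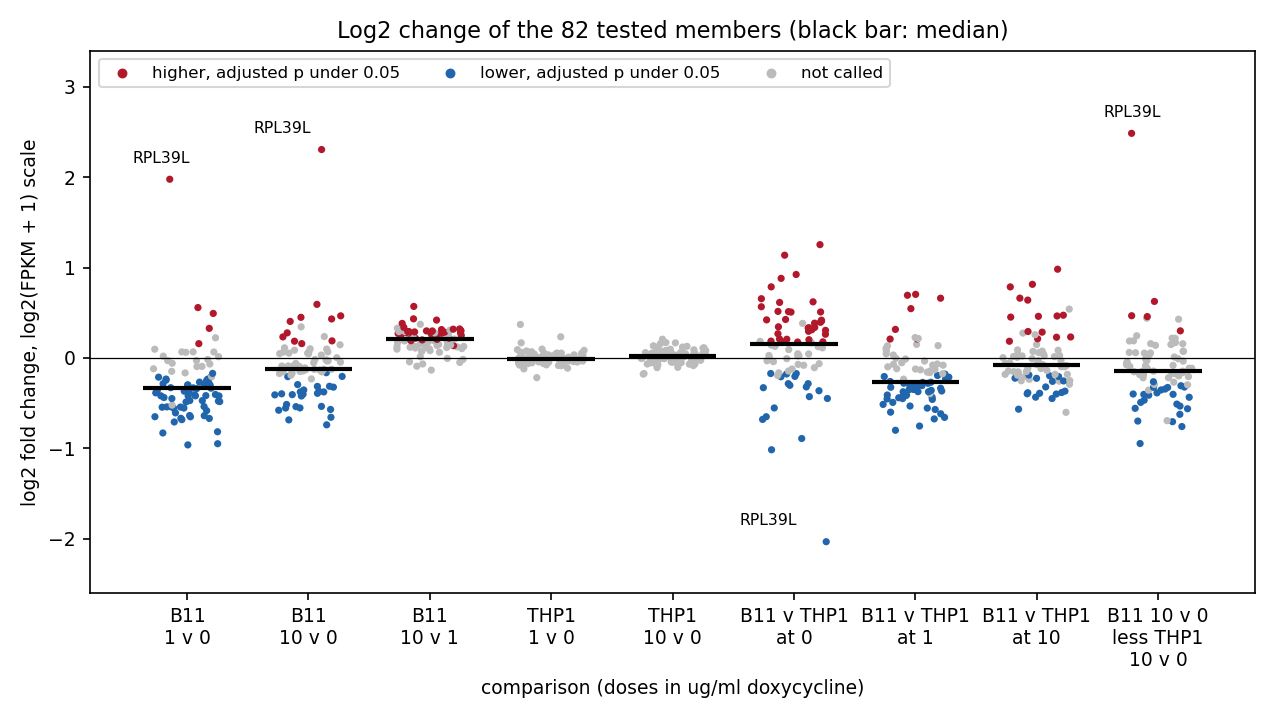
Log2 change of each of the 82 tested members (points, y axis, on the log2(FPKM + 1) scale) in 9 comparisons along the x axis. Red and blue points passed an adjusted p under 0.05 upwards and downwards, grey points did not, and black bars are medians. RPL39L stands apart at 1.98 and 2.31 in treated B11 and at -2.03 in untreated B11 against THP1, and no member is called in THP1.

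At 1 against 0 ug/ml in B11 the fall was broader, with 57 members called lower and 5 higher. The members that fell are 69.5% of the 82, against 17.3% of all genes called lower, and those that rose are 6.10%, against 19.8% called higher. The median member changed by -0.34, against -0.01 over all genes. Large and small subunit genes moved alike, with 35 of 50 and 22 of 32 lower and medians of -0.35 and -0.33. RPL34 was at 1538, 1326 and 1438 FPKM at 1 ug/ml, against 2529, 2969 and 2894 FPKM without doxycycline, a limma change of -0.96 (SE 0.09, adjusted p = 9.10e-07). RPL39 changed by -0.95 (SE 0.12), RPL27A by -0.83 (SE 0.10), RPS3A by -0.82, RPL37 by -0.71 and RPL22 by -0.68 (SE 0.11). RPL11, which also binds MDM2, fell by 0.61 (SE 0.06, adjusted p = 2.07e-06), and its partner RPL5 by 0.25 (SE 0.05, adjusted p = 0.00139). RPS6, the substrate of the S6 kinases, fell by 0.48 (SE 0.08, adjusted p = 0.000163), and RPS27A, made as a fusion with ubiquitin, by 0.49. Of the 57 members, 26 were also called lower at 10 ug/ml, where 32.9% of the 82 were lower. Both doses share the untreated libraries, and the same overlap over all genes was not counted.

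The 5 members that rose at 1 ug/ml were RPL39L, RPL26L1, RPS26, RPL7L1 and RPS19. All were also called higher at 10 ug/ml, where 13.4% of the 82 rose, against the same untreated libraries. RPL39L was at 29.9, 29.5 and 34.2 FPKM at 1 ug/ml, a limma change of 1.98 (SE 0.11, adjusted p = 3.89e-09) against untreated B11. RPS26 was at 146, 152 and 159 FPKM, a change of 0.49 (SE 0.08, adjusted p = 0.000112). RPL7L1, whose product works in pre-ribosome maturation, was at 66.6, 70.4 and 67.1 FPKM at 1 ug/ml, against 54.8, 51.9 and 55.4 FPKM without doxycycline, a change of 0.33 (SE 0.07, adjusted p = 0.00249). RPL26L1 changed by 0.56 (SE 0.18, adjusted p = 0.0246), a call lost without library A or B at 1 ug/ml and without library B or C at 0 ug/ml. RPS19 changed by 0.16 (SE 0.05, adjusted p = 0.0228), and that call was lost without library B or C at 1 ug/ml and without library A or B at 0 ug/ml. When libraries B and C at 1 ug/ml were both left out, 2 rises, of RPL39L and RPS26, and 51 falls were called.

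At 10 against 1 ug/ml in B11, 35 members rose and none fell. The 35 are 42.7% of the 82, against 5.69% of all genes called higher, and the 0 stand against 7.12% called lower. The median member changed by 0.21, against -0.01 over all genes, and 75 of the 82 fitted changes were above 0. At an unadjusted p under 0.05, 56 members passed. RPL12, at the base of the P-stalk, was at 2691, 2802 and 2977 FPKM at 10 ug/ml and at 2084, 2112 and 2074 FPKM at 1 ug/ml, a limma change of 0.43 (SE 0.07, adjusted p = 0.000501). RPS23, which sits at the decoding centre, changed by 0.42 (SE 0.06, adjusted p = 0.000596), RPS2 by 0.38 (SE 0.07) and RPL13A by 0.32. RPL22L1, the copy of RPL22, was at 40.4, 35.5 and 44.5 FPKM at 10 ug/ml and at 27.0, 27.2 and 25.5 FPKM at 1 ug/ml, a change of 0.57 (SE 0.14, adjusted p = 0.0139), and that call was lost without library C of either group. RPLP0 changed by 0.34 (SE 0.10, adjusted p = 0.0370), a call lost without any of the 6 libraries compared. Leaving out both B and C of the 1 ug/ml group gave 6 calls, a fit in which the remaining library is assumed to vary like the other groups, although the median change was then 0.24. The count was 22 or 23 without library B or C at 10 ug/ml, or A or C at 1 ug/ml, and 21 without the intensity trend in the variance moderation. Of the 35, 29 were among the 57 members (69.5% of the 82) that fell at 1 against 0 ug/ml. Both comparisons use the libraries at 1 ug/ml, so low values there favour both calls. The fitted value at 1 ug/ml lay below those at both 0 and 10 ug/ml in 66 of 82 members, whether or not a change was called. It was thus the low point of the dose series for most of the family. The same count over all tested genes was not made, so how common this pattern was outside the family is not known.

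THP1 given doxycycline showed no called change in any member. At 10 against 0 ug/ml 0 members were called in either direction, against 0.0968% of all genes called higher and 0.923% lower, and none reached an unadjusted p under 0.05. The median change was 0.02 and single members ranged from -0.18 for RPL39L to 0.21 for RPL39. At 1 against 0 ug/ml 0 members were again called, against 0.0057% of all genes in either direction, with a median of -0.01 and none at an unadjusted p under 0.05. RPL39L was at 29.9, 32.3 and 23.95 FPKM in THP1 at 10 ug/ml and at 32.1, 32.9 and 32.2 FPKM in untreated THP1. Without library C of THP1 at 10 ug/ml, 1 member was called higher.

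The difference between the dose responses of the lines, B11 at 10 against 0 ug/ml less THP1 at 10 against 0 ug/ml, was called in 29 members, 24 lower and 5 higher. These are 29.3% and 6.10% of the 82, against 13.8% and 16% of all genes. With TPM values 23 were lower and 11 higher, and with the GC and length trend removed 20 and 13. The 5 with a higher response in B11 were RPL39L by 2.49 (SE 0.16, adjusted p = 3.27e-08), RPS26 by 0.63 (SE 0.11, adjusted p = 0.000441), RPS2 by 0.47 (SE 0.10, adjusted p = 0.00344), RPS19 by 0.46 (SE 0.07, adjusted p = 0.000191) and RPL8 by 0.30 (SE 0.07, adjusted p = 0.00594). Among those with a lower response, RPL39 differed by -0.95 (SE 0.17, adjusted p = 0.000566) and RPL34 by -0.76 (SE 0.13, adjusted p = 0.000407), followed by RPL27A, RPS13, RPL30 and RPL22 at -0.71 to -0.56. The difference was not called for RPLP0 (0.25, SE 0.14, adjusted p = 0.213) or RPL26L1 (0.44, SE 0.26, adjusted p = 0.221).

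The copies and their canonical partners differed in how close their sequences are, which bears on how far their reads can be told apart. The coding sequence of RPL39L matches that of RPL39 in 94.9% of 156 aligned bases, with a longest identical stretch of 44 bases; how reads that fit both genes were assigned is not stated. RPL26L1 and RPL26 match in 84.2% of 438 bases with no identical stretch over 20. Their first 150 coding bases, from GENCODE release 29 transcripts of genes on chromosomes 5 and 17, differ at 29 positions, shown in capitals.
RPL26L1: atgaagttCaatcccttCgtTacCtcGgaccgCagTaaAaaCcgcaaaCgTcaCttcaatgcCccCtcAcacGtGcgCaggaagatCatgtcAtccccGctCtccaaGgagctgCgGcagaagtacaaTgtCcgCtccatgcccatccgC
RPL26: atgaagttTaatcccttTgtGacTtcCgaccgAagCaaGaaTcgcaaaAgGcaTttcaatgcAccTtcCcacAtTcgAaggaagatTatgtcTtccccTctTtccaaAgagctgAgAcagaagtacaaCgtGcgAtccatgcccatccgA
The other pairs match in 89.3% (RPL10L and RPL10), 78.0% (RPS27L and RPS27), 75.2% (RPL3L and RPL3), 66.6% (RPL22L1 and RPL22) and 55.3% (RPL7L1 and RPL7) of aligned bases.

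RPL26L1 was at 48.9, 51.4 and 47.1 FPKM in B11 at 10 ug/ml and at 41.4, 31.7 and 33.4 FPKM in untreated B11. RPL26, known also for binding the p53 mRNA, was at 2385, 2389 and 2494 FPKM at 10 ug/ml and at 3092, 3036 and 3166 FPKM without doxycycline, a limma change of -0.35 (SE 0.07, adjusted p = 0.000429). The groups did not overlap for either gene, but the change of RPL26L1 (0.47, SE 0.18, adjusted p = 0.0497) lost its call without any library of B11 other than library A at 0 ug/ml, without any of 4 THP1 libraries, and with the replicate block. RPL26L1 came to 2.03% ± 0.132 of RPL26 at 10 ug/ml and 2.49% ± 0.220 at 1 ug/ml, against 1.15% ± 0.168 in untreated B11 (SD, n = 3 each). RPL7L1 came to 4.85% ± 0.191 and 5.67% ± 0.166 of RPL7 at these doses, against 3.09% ± 0.0996 in untreated B11 and 4.27% ± 0.342 in untreated THP1. RPL22L1 differed, since its 2.87% ± 0.208 of RPL22 in untreated B11 was not below THP1. It came to 3.87% ± 0.453 and 3.14% ± 0.188 in B11 at 10 and 1 ug/ml. THP1 had 2.67% ± 0.646, 2.58% ± 0.149 and 2.38% ± 0.669 at 0, 1 and 10 ug/ml. RPS27L, an apoptosis-linked copy and target of p53, was lower in B11 than in THP1 at 10 ug/ml, at 59.0, 62.5 and 58.9 FPKM against 88.9, 100 and 80.7 FPKM (-0.57, SE 0.13, limma adjusted p = 0.00419).

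**Figure D3:**
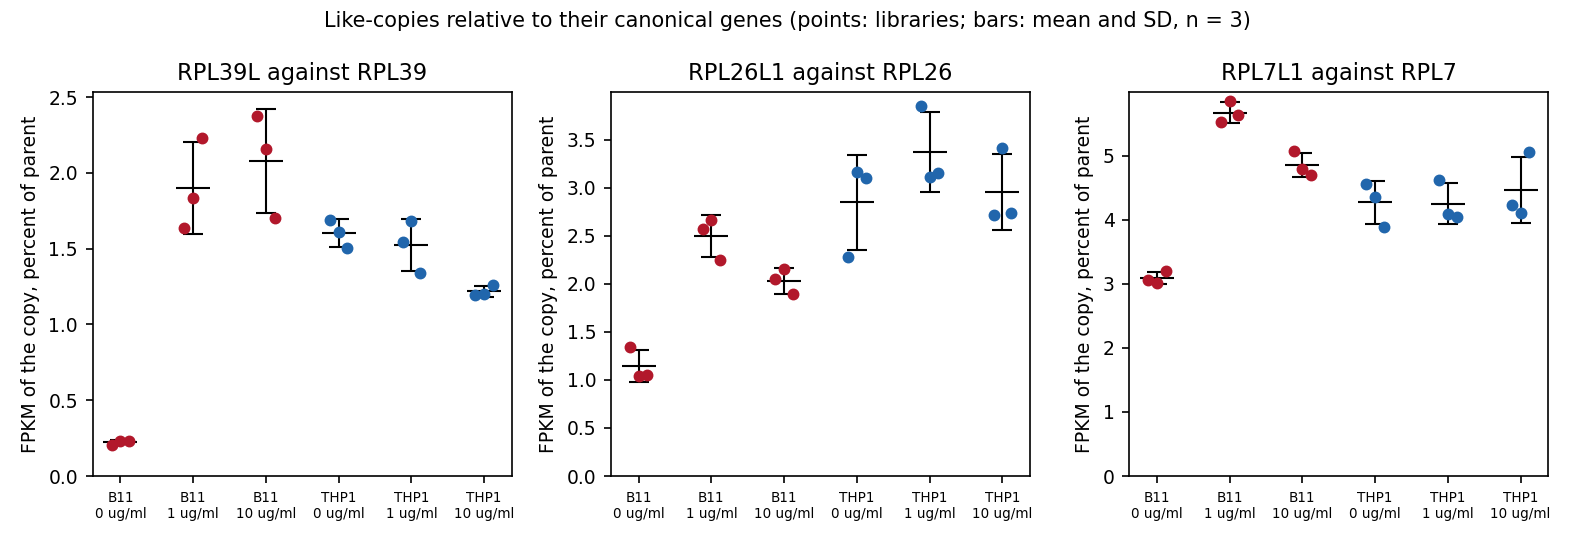
FPKM of RPL39L, RPL26L1 and RPL7L1 as a percent of RPL39, RPL26 and RPL7 (y axis of each panel) in each library of B11 (red) and THP1 (blue), by doxycycline dose on the x axis. Points are libraries and black bars are the mean and SD of 3. In all 3 panels untreated B11 lies lowest, at 0.224%, 1.15% and 3.09% on average. RPL22L1, not drawn, averaged 2.87% of RPL22 in untreated B11, above THP1 at 2.38% to 2.67%.

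Without doxycycline, B11 differed from THP1 in 55 members, 36 higher and 19 lower. The higher ones are 43.9% of the 82, against 23.5% of all genes, and the lower ones 23.2%, against 23.6% of all genes. The median member differed by 0.15, against 0.02 over all genes. With TPM values 25 were higher and 29 lower, with a median of 0.02, and with the GC and length trend removed 31 and 26, with a median of 0.05. The balance of higher and lower members thus rests on the scaling. RPS24, a small subunit protein mutated in Diamond-Blackfan anaemia, was at 4795, 4759 and 4796 FPKM in untreated B11 and at 1763, 2183 and 2094 FPKM in untreated THP1. That is a limma difference of 1.25 (SE 0.07, adjusted p = 3.72e-09). RPL26 differed by 1.14 (SE 0.07), RPL19 by 0.92 (SE 0.06), RPS23 by 0.88 (SE 0.06) and RPL37 by 0.79. On the lower side, RPL39L differed by -2.03 (SE 0.11, adjusted p = 1.92e-09). RPS26, at 109, 109 and 106 FPKM in B11 and 197, 241 and 222 FPKM in THP1, differed by -1.02 (SE 0.08, adjusted p = 4.43e-08). RPS19 differed by -0.89 (SE 0.05), RPSA, which also serves as a laminin receptor, by -0.68 (SE 0.16) and RPS2 by -0.65 (SE 0.07).

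At 1 ug/ml, 7 members were higher in B11 than in THP1 and 47 lower, or 8.54% and 57.3% of the 82, against 15% and 14.8% of all genes. With library A alone kept for B11 at 1 ug/ml, 4 were higher and 34 lower. At 10 ug/ml, 15 were higher and 17 lower, or 18.3% and 20.7%, against 16.4% and 16% of all genes. The count at 10 ug/ml was 13 higher and 44 lower with TPM over protein-coding nuclear genes, 14 and 39 with TPM over all genes, 15 and 30 with the median of ratios, and 9 and 11 when only those groups were fitted. Without library C of THP1 at 10 ug/ml, 13 were higher and 34 lower. Members called higher in B11 at all 3 doses were RPL10A, RPL19, RPL23A, RPL26, RPS14, RPS23 and RPS24. Members called lower at all 3 doses included RPL17, RPL35, RPS19, RPS26, RPS27L, RPS28, RPS3 and RPS7. RPL19 differed by 0.98 (SE 0.06, adjusted p = 1.27e-08) at 10 ug/ml, at 5379, 5411 and 5526 FPKM in B11 and 2868, 2787 and 2611 FPKM in THP1.

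The members higher in B11 at every dose lie on 4 chromosomes, 5, 6, 10 and 17. RPS24 is on chromosome 10, RPL19, RPL23A and RPL26 on chromosome 17, RPS14 and RPS23 on chromosome 5 and RPL10A on chromosome 6. On these chromosomes the other tested genes were also higher in untreated B11, with a median difference of 0.63 over 605 genes of chromosome 10, 0.55 over 1133 of chromosome 17, 0.29 over 885 of chromosome 6 and 0.27 over 755 of chromosome 5. On each other autosome and on X the median lay between -0.24 and 0.05. All 6 members on chromosome 17 (RPL19, RPL23, RPL23A, RPL26, RPL27 and RPL38) were called higher in untreated B11, with a median of 0.59. Of the other tested genes there 47.4% were higher and 10.15% lower. On the 4 chromosomes 14 of 16 members were higher and 1 lower, with a median of 0.51. Of all tested genes there 43.8% were higher and 12.2% lower, with a median of 0.44. On the other chromosomes 22 of 66 members were higher and 18 lower, with a median of 0.05. Of all tested genes there 18.6% were higher and 26.4% lower, with a median of -0.05. At 10 ug/ml the 4 chromosomes held 11 of the 15 members called higher and 0 of the 17 called lower. Of all tested genes on the 4 chromosomes 38.9% were then higher and 5.57% lower. The 4 chromosomes were singled out after their medians were seen, and whether B11 carries extra copies of them was not tested.

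**Figure D4:**
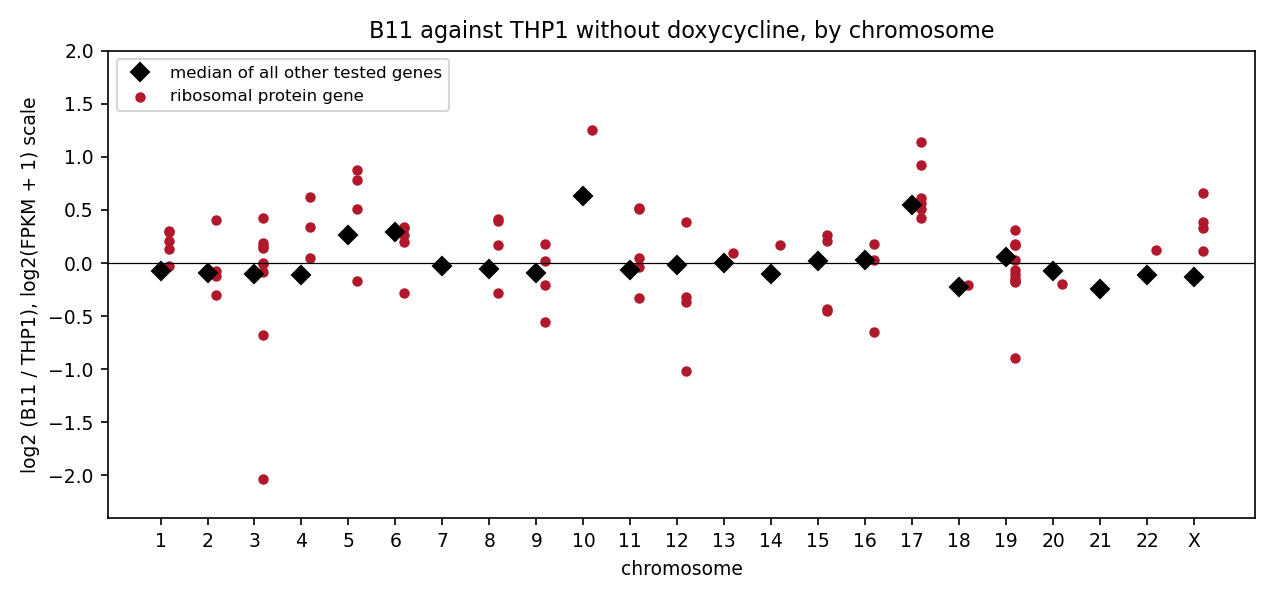
Log2 difference of B11 against THP1 without doxycycline (y axis, log2(FPKM + 1) scale) by chromosome (x axis). Black diamonds are the median of all other tested genes on a chromosome and red points are single ribosomal protein genes. Chromosomes 10 and 17 have the highest medians, 0.63 and 0.55, and all 6 members on chromosome 17 lie above 0.

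Base composition went with the change of the family in B11 at both doses against 0 ug/ml, but hardly with the change between the doses. The GC content, taken from the lowest-numbered coding transcript of each gene, ran from 41.7% to 63.1% over the members. Other transcripts of a gene may differ. Across the 82 members, Spearman's rho of the change at 10 against 0 ug/ml in B11 with GC content was 0.52 (Pearson's r 0.35), a description over genes that share libraries and depth. Of the 41 members with lower GC, 21 fell and 3 rose, with a median change of -0.23. Of the 41 with higher GC, 6 fell and 8 rose, with a median of -0.03. At 1 against 0 ug/ml rho was 0.53, and at 10 against 1 ug/ml 0.09. In THP1 at 10 against 0 ug/ml it was -0.37, where the 207 other protein-coding genes with a mean of at least 500 FPKM had -0.36. For untreated B11 against untreated THP1 it was -0.39 over the members and 0.08 over those 207 genes. The 12647 other protein-coding genes had rho of -0.06 for the change in B11 at 10 against 0 ug/ml, and the 207 abundant ones among them also -0.06. Transcript length had rho of 0.09 with the members' change. With the trend over GC and length removed from each library, an alternative chosen after seeing the data, 24 members fell and 23 rose at 10 against 0 ug/ml, and 52 fell and 6 rose at 1 against 0 ug/ml.

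**Figure D5:**
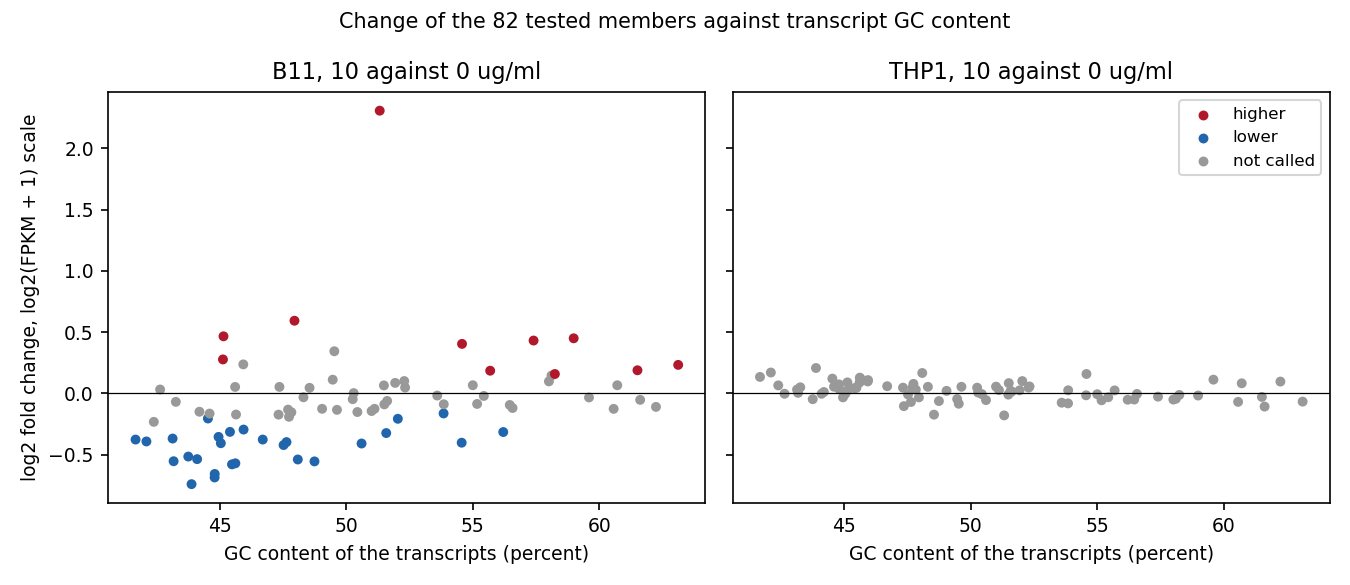
Log2 change of the 82 tested members (y axis, log2(FPKM + 1) scale) against GC content (x axis, percent) for 10 against 0 ug/ml in B11 (left) and THP1 (right). GC content is that of 1 transcript per gene, the lowest-numbered coding one. Red and blue points were called higher and lower, grey points were not called. In B11 21 of the 27 called falls lie among the 41 members of lower GC, with rho of 0.52 over members, and in THP1 none is called.

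The TOP run at the start went with the change at 1 ug/ml in part. Of 47 tested members with the run, 37 fell and 1 rose at 1 against 0 ug/ml, with a median of -0.41. Of 19 tested members with a start window and no run, 10 fell and 3 rose, with a median of -0.17. These 19 include RPL26L1, RPS27L and RPL7L1, which are among the 5 lowest tested members. Over all tested genes 17.3% were called lower and 19.8% higher. RPS26, RPL26L1 and RPL7L1, printed above without a run, were the members without it that rose, while RPS19 has the run and rose as well. At 10 against 1 ug/ml 22 of the 47 rose, with a median of 0.25, against 6 of the 19, with a median of 0.11, and 5.69% of all genes. Untreated B11 already differed from untreated THP1 in this respect, with 24 of the 47 higher and 6 lower. The 19 had 5 and 7 there, and all genes 23.5% and 23.6%. Changes of other genes with the run were not examined. The presence of these letters is a description of the listed starts, and starts used in these cells were not measured.

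Genes that work with the family moved differently from it in B11. Of all tested genes, 21.6% were called higher and 21.3% lower at 10 against 0 ug/ml. At 1 against 0 ug/ml these shares were 19.8% and 17.3%. Of 22 nucleolar ribosome biogenesis genes, 16 rose and 0 fell at 10 against 0 ug/ml (median 0.68), and 19 rose and 0 fell at 1 against 0 ug/ml (median 0.70). NCL, nucleolin, averaged 678 FPKM in B11 at 10 ug/ml, against 393 FPKM in untreated B11, a limma change of 0.79 (SE 0.05), and NOLC1, a chaperone of small nucleolar particles, changed by 0.94 (SE 0.08). Of 21 chaperones and assembly factors of ribosomal proteins, 11 rose and 1 fell at 10 ug/ml (median 0.34), among them RPF2, which brings RPL5 and RPL11 into the particle, at 1.07 (SE 0.10), and BYSL of the small subunit pathway at 0.95 (SE 0.11). Of 78 mitochondrial ribosomal proteins, 56 rose and 1 fell (median 0.58), with MRPL12 at 0.87 (SE 0.06) and MRPL37 at a mean of 194 FPKM at 10 ug/ml, against 83.8 FPKM in untreated B11. At 1 against 0 ug/ml 46 of these rose and 2 fell (median 0.45), where the cytoplasmic members had 5 and 57. In untreated B11 against untreated THP1, 2 of the nucleolar genes were higher and 18 lower (median -0.79). For the chaperones and assembly factors these counts were 2 and 10, and for the mitochondrial proteins 11 and 47. With both lines at 10 ug/ml they were 5 and 9, 4 and 4, and 25 and 6, in the same order. NCL averaged 996 FPKM in untreated THP1 and 980 FPKM in THP1 at 10 ug/ml. Low values in untreated B11 favour lower calls against THP1 and rises with doxycycline alike.

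Of 23 translation factors and other TOP mRNAs, 7 rose and 7 fell at 10 against 0 ug/ml (median -0.11), and 4 rose and 14 fell at 1 against 0 ug/ml (median -0.26). The shares over all genes are those given above for the same comparisons. In untreated B11 against untreated THP1, 16 of these 23 were higher and 3 lower. TPT1, the translationally controlled tumour protein, changed by -0.59 (SE 0.05), NACA, which shields nascent chains, by -0.49 (SE 0.06) and EIF3E, a subunit of an initiation factor, by -0.43 (SE 0.05) at 10 against 0 ug/ml. NPM1, a nucleolar chaperone, changed by 0.95 (SE 0.09). Of 11 snoRNA host genes of the TOP class, 2 rose and 3 fell at 10 ug/ml, and 2 rose and 6 fell at 1 ug/ml, with ZFAS1 at -0.58 (SE 0.09) and SNHG5 at -0.57 (SE 0.08) at 10 against 0 ug/ml. Among ribosomal proteins whose symbols fall outside the rule, RACK1 changed by 0.14 (SE 0.05), RPL36AL by 0.20 (SE 0.07) and FAU, a fusion with RPS30, by -0.07 (SE 0.06, limma adjusted p = 0.455). Of 17 genes that control TOP mRNA translation or encode ribosomal protein kinases, 6 rose and 3 fell at 10 against 0 ug/ml (median 0.18). EIF4EBP1, an inhibitor of cap-dependent initiation under mTORC1, changed by 1.80 (SE 0.16), MLST8, a subunit of mTORC1, by 1.35 (SE 0.08), and PDCD4, an inhibitor of EIF4A, by -1.05 (SE 0.11). None of the lists had more than 1 gene called in either direction in THP1 at 10 against 0 ug/ml. Those called were MLST8 (0.46, SE 0.08, limma adjusted p = 0.0116) and the snoRNA host GAS5 (0.58, SE 0.11, limma adjusted p = 0.0261). For MLST8 the response in B11 less that in THP1 was 0.89 (SE 0.11).

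Reads of the members can be shared with other annotated genes. GENCODE release 29 names 1144 processed pseudogenes of members among the rows, and 77 members have at least 1. Their summed FPKM was 2.39% to 2.56% of the members' sum in every library. By parent the sum of mean values was largest for RPS27A at 50.6% of the parent, RPSA at 34.4%, RPS7 at 32.8% and RPL9 at 31.4%, and it was under 5% for 64 of the 77. With each member summed with its pseudogenes 27 were again called lower and 11 higher at 10 against 0 ug/ml in B11, but not the same genes: RPS27A, at -0.20 (limma adjusted p = 0.0392), was not called with its pseudogenes added (-0.22, adjusted p = 0.0834). Its call was lost in 10 of the 31 alternatives, which include leaving out library A, B or C at 10 ug/ml and library B or C at 0 ug/ml, with adjusted p-values of 0.00429 to 0.143 over all of them. An annotated gene overlaps 38 members on the opposite strand, among them RPS26, RPL27A, RPL30, RPL26 and RPS23. No label or header says if reads were counted by strand, so reads of such partners cannot be told apart.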

How the data were processed

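Total RNA of 18 plates, 3 in each of 6 groups, was sequenced from Illumina libraries, per the labels' protocols. The tools named are HISAT2 and Cuffnorm, with the build GRCh38, per the submitters' processing notes. No source read here states versions, annotation release or scaling option. The deposited table gives FPKM per Ensembl gene. Its header names no unit, and FPKM was inferred from Cuffnorm and the values. All 18 columns matched a sample title, so 0 were left out. GENCODE release 29 named 57047 of 60658 IDs and gave 84 members.

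A gene was kept when 3 or more libraries reached 1 FPKM (17555 genes). Values of log2(FPKM + 1) were fitted over 6 group means with limma 3.58.1 in R 4.3.3 (intensity trend, 12 residual degrees of freedom) for 9 comparisons. Benjamini-Hochberg adjustment ran over all genes of a comparison, with calls at an adjusted p under 0.05. The fit was tested on simulated data. Fold changes of low genes are understated on this scale. Depth was estimated from 1338 genes with a single transcript of at least 3000 bases and limits the lowest members most. No pair of libraries in a group held identical values.

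Named genes were, per comparison, up to 6 called members with the largest rise and 6 with the largest fall, the 5 highest and 5 lowest tested members, the copies with their partners, untested members, a fixed set (RPL5, RPL11, RPL26, RPS19, RPS14, RPS6, RPSA, RPS27A, RPL13A, RPL10, RPS3), and up to 4 called genes with the smallest p per list. Other members named (RPL41 and those in counts by chromosome, dose, overlap or pseudogenes) were chosen after their values were seen. Results for some genes are not reported here. The members and lists were chosen with earlier results of these data known. Start windows came from RefSeq on GRCh38.p14, and transcripts from GENCODE. Python 3.11.15 with matplotlib 3.10.9 drew the figures.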

Additional observations from a re-analysis of the deposited data

Results flagged for a closer look

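The response to 10 against 0 ug/ml doxycycline differed between B11 and THP1 by the interaction term of the limma fit in these members, given as B11 less THP1 on the log2 scale with n = 3 libraries in each of 4 groups. Those higher in B11 were RPL39L at 2.49, RPS26 at 0.63, RPS2 at 0.47, RPS19 at 0.46 and RPL8 at 0.30. Those lower in B11 were RPL39 at -0.95, RPL34 at -0.76, RPL27A at -0.71, RPS13 at -0.70, RPL30 at -0.62 and RPL22 at -0.56. Both lists are the members with the largest differences among the 29 called. In THP1 alone none of these 11 members was called.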

How the results depend on the processing

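Of 149 changes of named members that were called, 100 were called in each of the 31 alternatives in which they could be fitted, 49 lost the call in at least 1, and 0 reversed. The count of members called moved by over 1.5 times in 10 fits, and the cause was not tested. Of these, 5 left out 1 library: 4 at 10 against 1 ug/ml in B11 (22 or 23), and that without library C at 10 ug/ml in THP1 (1, against 0). In the other 5, at 10 against 1 ug/ml in B11 it was 21 without the intensity trend and 6 when B11 at 1 ug/ml kept library A alone, against 35. For B11 against THP1 at 10 ug/ml it was 53 with TPM, 57 with TPM over protein-coding nuclear genes and 20 with only the groups compared, against 32. Plates with the same letter did not deviate together over the tested genes (correlations of -0.07 to 0.09 over 45 pairs). This cannot show that they shared no handling or batch, since one that touched few genes would not be seen. With the letter as a replicate block, the counts were 37, 62 and 34 for B11 at 10 against 0, 1 against 0 and 10 against 1 ug/ml, 0 for both THP1 comparisons, 54, 54 and 35 for B11 against THP1 at 0, 1 and 10 ug/ml, and 29 for the interaction. With 1 library left out in turn the counts ranged over 30 to 45 for B11 at 10 against 0 ug/ml, 57 to 64 for 1 against 0, and 22 to 44 for 10 against 1. For THP1 they ranged over 0 to 1 at 10 against 0 ug/ml and 0 to 0 at 1 against 0. For B11 against THP1 they ranged over 49 to 59, 46 to 57 and 26 to 47 at 0, 1 and 10 ug/ml, and for the interaction over 26 to 39. Differences in the lowest members, RPL39L to RPS27L, rest on the fewest fragments.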
